A study of Homo sapiens with 4 samples.

Results

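The MYC, MAX and MXD network was read from RNA-seq of 4 libraries as the 9 genes MYC, MYCL, MYCN, MAX, MLX, MXD1, MXD3, MXD4 and MNT. The members were chosen by symbol, and all 9 were among the 59050 genes of the deposited counts. MYCN did not pass the filter on low counts, so 8 members were among the 17479 genes tested. The labels give all 4 libraries as HepG2, a line of human cells derived from a hepatic tumor. There were 2 biological replicates of untreated cells (0 h), and 2 of cells given doxorubicin, a drug that traps topoisomerase II on DNA, at 1 ug/ml for 24 h to induce p53. A treatment tag of the doxorubicin libraries names a p53 and miRNA experiment instead. The titles call the untreated libraries nop53 and the doxorubicin libraries p53, and do not name the drug. These titles and the description of the series were followed. In the study, the comparison asks which mRNAs differ after p53 activation. Since the untreated libraries are labelled 0 h and the doxorubicin libraries 24 h, drug and time cannot be told apart here.

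The proteins of this network are transcription factors that bind DNA in pairs, at the E-box. MYC and its relatives MYCL and MYCN pair with MAX and activate genes of growth, such as those for ribosome production and nucleotide synthesis. The MXD proteins and MNT compete for MAX and repress through SIN3 and histone deacetylases. MLX is a MAX-like partner of the glucose-sensing factors MLXIP (MondoA) and MLXIPL (ChREBP), and it can also pair with MXD1, MXD4 and MNT. In liver, MYC is known for its role in tumor growth and MLXIPL for the response to sugar. p53 is known to lower MYC mRNA in many cell types, and MXD genes are known to be expressed when cells leave the cell cycle.

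The identity and the quality of the libraries bear on all values. The 10 liver markers had a summed level between 0.992 and 6.15 CPM per library, where CPM is the count divided by the column total and multiplied by 1000000. ALB (serum albumin) was listed at 0 to 0.109 CPM, so the label HepG2 was not matched by the defining genes of hepatocytes. KRT8, a keratin of simple epithelia, had between 2090 and 4110 CPM and KRT17 between 929 and 1590 CPM. The 7 squamous markers summed to 942 to 1610 CPM and the 4 of simple epithelium to 3020 to 5900 CPM. Most of the squamous sum was KRT17, while KRT5, KRT6A, TP63 and DSG3 had at most 0.45 CPM. S100A2 had 10.9 to 17.5 CPM and KRT14 2.39 to 7.43 CPM. For simple epithelium, KRT18 had 783 to 1790 CPM besides KRT8, while EPCAM and CDH1 had at most 0.727 CPM. The 6 fibroblast markers summed to 169 to 284 CPM, the 5 neural markers to 2.87 to 10.2 CPM and the 5 blood markers to at most 0.589 CPM. Among these markers, 4 passed the thresholds below (edgeR, untreated replicate 2 left out), FGB, DCN and LUM as higher and KRT8 as lower with doxorubicin, and their part in the results was not tested. Untreated replicate 2 stood apart. Across the genes tested, its log2 CPM had a Pearson correlation of 0.875 with untreated replicate 1, while the doxorubicin replicates had 0.985 with each other and 0.972 and 0.967 with untreated replicate 1 (across genes, which are not independent replicates). Untreated replicate 2 was also lower for long transcripts. The median log2 CPM ratio of untreated replicate 2 over 1 was 0.41 in the shortest 3611 genes (up to 2910 exon bases) and -0.65 in the longest 3610 (from 7829 exon bases), against -0.02 and 0.14 for doxorubicin replicate 2 over 1. The part of transcript length in the values of the members was not tested. Each library held between 27572740 and 36272180 counts, for which 3 counts correspond to 0.0827 to 0.109 CPM.

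The E-box CACGTG, the site that these proteins bind, was searched in the 250 bases before the RefSeq start of the members (GRCh38.p14). The motif reads the same on both strands. MYC itself had no promoter entry and was not searched. Of the 8 members with an entry, MLX, MXD4 and MNT held the motif, 1 copy each, and 6.34% of all 35116 promoters held it in the same window. Stretches of 60 bases around it are shown because these are the members whose own promoters carry the letters of the network's binding site. They lie at chr17:42567010-42567069 (plus strand) for MLX, chr4:2262300-2262359 (minus strand) for MXD4 and chr17:2401234-2401293 (minus strand) for MNT, and the motif starts 50, 238 and 193 bases before the RefSeq start, which for MLX and MNT is not the GENCODE start given with each gene. Capitals mark the E-box, and each sequence is written 5′ to 3′.
MLX: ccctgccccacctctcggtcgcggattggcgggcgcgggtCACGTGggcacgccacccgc
MXD4: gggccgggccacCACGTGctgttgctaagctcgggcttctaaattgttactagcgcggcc
MNT: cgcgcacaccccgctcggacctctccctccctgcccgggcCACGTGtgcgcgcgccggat
These 3 genes did not share a pattern over the libraries. MXD4 was highest in untreated replicate 2, MLX was lowest there, and MNT was between the other libraries.

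With all 4 libraries, no member passed the thresholds of the study's methods (adjusted p under 0.05 and an absolute log2 fold change of 1 or more). In the quasi-likelihood test of edgeR, 0 of the 17479 genes passed (0%), and the adjusted p-values of the 8 members were between 0.773 and 0.989 (Benjamini-Hochberg over all genes). The standard errors (SE) of their fold changes ran from 0.34 to 1.34 on the log2 scale, so the absence of calls does not show that levels were equal. Without adjustment, 0 of the 8 members had a p-value under 0.05 in this test, against 4.39% of all genes. The likelihood ratio test and the exact test of edgeR and DESeq2 called 0 members as well, with 2 members, MYCL and MXD3, under an unadjusted p-value of 0.05 in each, where 6.79%, 5.61% and 7.29% of all genes were. The values of untreated replicate 2 were far from those of the other libraries in most members. It was above the other 3 in MYCL, MYCN, MXD1, MXD3 and MXD4 and below them in MYC, MAX and MLX, and in MNT alone it lay within their range. Among all genes tested, 36.6% had untreated replicate 2 above and 45% had it below the other 3, so that such a position was common in these libraries.

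**Figure D1:**
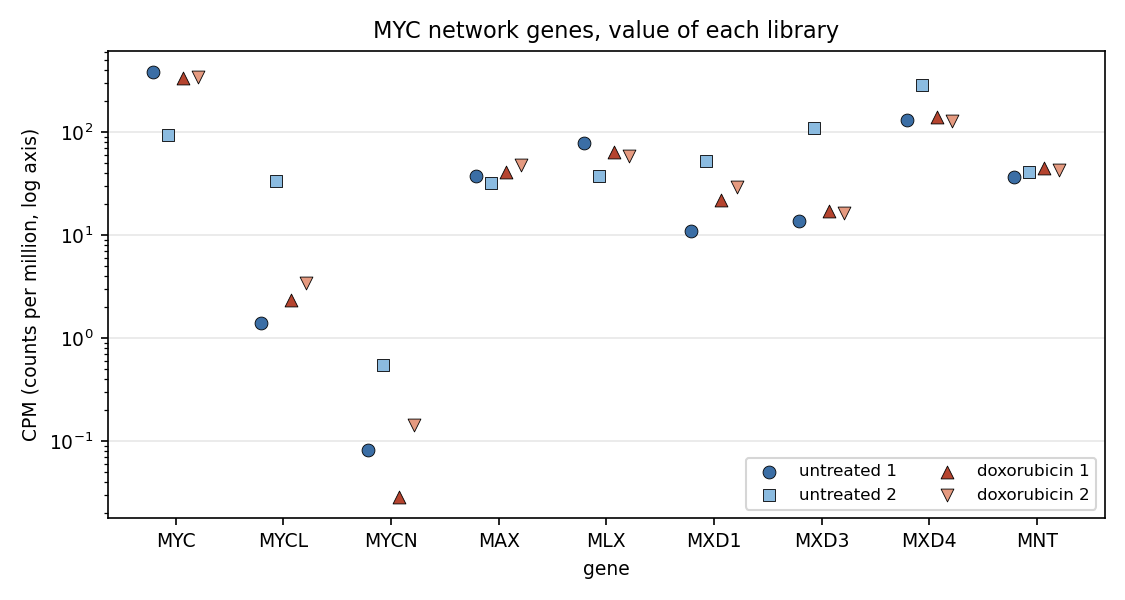
Each point is the CPM of 1 gene in 1 library, on a log axis, for the 9 genes of the network. The square of untreated replicate 2 lies apart from the other 3 libraries in MYC (94.0 CPM against 337 to 385), MYCL (33.4 against 1.41 to 3.45) and MXD3 (111 against 13.9 to 17.3), and close to them in MAX and MNT.

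MYC (chromosome 8, 127735434 to 127742951, GRCh38, plus strand), the activator of the network found in most dividing cells, was the most abundant member per kb of exon in 3 of the 4 libraries. MYC had 13969 and 2713 counts in the untreated libraries (replicates 1 and 2, an order kept throughout) and 11565 and 9525 in the doxorubicin libraries. On the CPM scale these are 385 and 94.0 without and 337 and 345 with the drug. Both doxorubicin libraries lay between the untreated libraries, which differed from each other by 4.10-fold, so the groups overlapped. Fewer cells that express a gene and less RNA per cell cannot be told apart in such bulk libraries. The log2 fold change (doxorubicin over untreated) was 0.35 with an SE of 0.65 (edgeR, adjusted p-value 0.875). With untreated replicate 2 left out the log2 fold change was -0.32 with an SE of 0.22 (edgeR, adjusted p-value 0.434), and the mean CPM of the doxorubicin libraries was 0.886 of that of untreated replicate 1. The direction for MYC therefore depended on 1 untreated library. Of the exon bases of MYC, 3.18% are shared with the antisense gene CASC11, which had at most 0.45 CPM.

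MYCL (chromosome 1, 39895428 to 39902256, minus strand), a MYC relative first found in lung cancer, was scarce in all libraries but 1. The counts were 51 and 964 for the untreated and 80 and 95 for the doxorubicin libraries (replicates 1 and 2). On the CPM scale MYCL had 1.41 and 33.4 against 2.33 and 3.45, a 23.7-fold difference between the untreated libraries. The groups overlapped, since both doxorubicin libraries lay between the untreated ones. The log2 fold change was -2.75 with an SE of 1.34 (edgeR, adjusted p-value 0.773). When untreated replicate 2 was dropped it was 0.87 with an SE of 0.43 (edgeR, adjusted p-value 0.243), the opposite direction. As a share of the counts of MYC, MYCL and MYCN together, MYCL took 0.364% in untreated replicate 1 (95% Clopper-Pearson interval 0.271% to 0.478%) and 26.1% in untreated replicate 2 (24.7% to 27.6%). It took 0.687% (0.545% to 0.854%) and 0.987% (0.799% to 1.21%) in the doxorubicin replicates. These intervals cover counting error only.

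MYCN (chromosome 2, 15940550 to 15947007, plus strand), the relative known from neuroblastoma, was close to the limit of detection. Its counts were 3 and 16 for the untreated and 1 and 4 for the doxorubicin libraries. The untreated libraries alone spanned 3 to 16 counts, so a difference by treatment was not detectable for MYCN over the 4 libraries, and no fold change is given. The highest level, 0.554 CPM, was again that of untreated replicate 2. Its antisense transcript MYCNOS had at most 0.0346 CPM.

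MAX (chromosome 14, 65006174 to 65102695, minus strand), the common partner of MYC and MXD proteins, varied little. MAX had 1375 and 934 counts without and 1412 and 1319 with doxorubicin, or 37.9 and 32.3 CPM against 41.1 and 47.8 CPM. Both doxorubicin libraries were above both untreated libraries. The same was found for MNT, so 2 of the 8 members tested had both doxorubicin libraries higher, against 30.3% of all genes, and 0 had both lower, against 11.5%. The log2 fold change of MAX was 0.18 with an SE of 0.35 (edgeR, adjusted p-value 0.883), and 0.08 with an SE of 0.25 without untreated replicate 2. Of its exon bases, 13.1% are shared with FNTB on the other strand, which had 6.82 to 10.1 CPM.

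MLX (chromosome 17, 42567072 to 42573239, plus strand), the partner of the glucose-sensing factors, had 2888 and 1090 counts without and 2186 and 1635 with doxorubicin. Its CPM was 79.6 and 37.7 against 63.7 and 59.3, and the groups overlapped. Its log2 fold change was -0.09 with an SE of 0.45 (edgeR, adjusted p-value 0.957), and it was 0.07 when column totals alone set the scale. Once untreated replicate 2 was left out the log2 fold change was -0.52 with an SE of 0.23, which had an unadjusted p-value of 0.0258 and an adjusted p-value of 0.182 in the edgeR test. The gene PSMC3IP on the other strand shares 18.2% of the exon bases of MLX and went the other way in the untreated libraries, with 33.9 CPM in replicate 1 and 111 CPM in replicate 2. PSMC3IP had 39.1 and 40.9 CPM in treated cells. Whether reads of the shared bases were counted for MLX is not given in the sources used here.

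MXD1 (chromosome 2, 69897688 to 69942945, plus strand), a repressor known from differentiating cells, was the member that passed the thresholds once untreated replicate 2 was left out. Its counts were 402 and 1531 for the untreated and 763 and 804 for the doxorubicin libraries. On the CPM scale it had 11.1 and 53 against 22.2 and 29.2, so that both doxorubicin libraries lay between the untreated ones. The log2 fold change over all libraries was -0.48 with an SE of 0.74 (edgeR, adjusted p-value 0.849). Without untreated replicate 2 it was 1.06 with an SE of 0.28 and an adjusted p-value of 0.00604 (edgeR), and the doxorubicin mean was 2.32-fold the CPM of untreated replicate 1. Without untreated replicate 1 instead it was -1.13 with an SE of 0.24 (edgeR, adjusted p-value 1.28e-05). Each untreated library alone thus gave a call for MXD1, in opposite directions. In such fits the lone untreated library is assumed to vary like the doxorubicin replicates, which is a spread that the untreated pair went far beyond.

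MXD3 (chromosome 5, 177301461 to 177312757, minus strand), a family member known from proliferating S-phase cells, had 505 and 3195 counts without and 595 and 455 with doxorubicin. Its CPM was 13.9 and 111 against 17.3 and 16.5. Untreated replicate 1 and the doxorubicin libraries were close together, and untreated replicate 2 was 7.95-fold above untreated replicate 1. The log2 fold change was -2.03 with an SE of 0.93 (edgeR, adjusted p-value 0.773), and 0.14 with an SE of 0.28 without untreated replicate 2. MXD3 shares 19.5% of its exon bases with RAB24 and 24.2% with PRELID1, both of which were also highest in untreated replicate 2. RAB24, on the same strand, had 46.5 and 149 CPM in untreated and 62.4 and 53.2 CPM in treated cells. PRELID1, on the other strand, had 271 and 439 against 249 and 257 CPM. The part of shared reads in the level of MXD3 was not tested.

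MXD4 (chromosome 4, 2247432 to 2262109, minus strand), a repressor of the same family, was the most abundant repressor per kb of exon in every library. There were 4782 and 8414 counts without and 4851 and 3536 with doxorubicin, or 132 and 291 CPM against 141 and 128 CPM. The groups overlapped, and the doxorubicin libraries were on either side of untreated replicate 1. Its log2 fold change was -0.80 with an SE of 0.45 (edgeR, adjusted p-value 0.773), and -0.11 with an SE of 0.23 without untreated replicate 2, where it was 0.0327 with column totals alone.

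MNT (chromosome 17, 2384073 to 2401104, minus strand), a MAX-binding repressor found in both resting and dividing cells, had the smallest ratio of the highest to the lowest CPM among the members. MNT had 1332 and 1191 counts without and 1550 and 1179 with doxorubicin, or 36.7 and 41.2 CPM against 45.2 and 42.8 CPM. Both doxorubicin libraries were above both untreated libraries by a small margin. The log2 fold change was 0.02 with an SE of 0.34 (edgeR, adjusted p-value 0.989), and -0.04 with RLE factors. Without untreated replicate 2 it was 0.11 with an SE of 0.25.

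**Figure D2:**
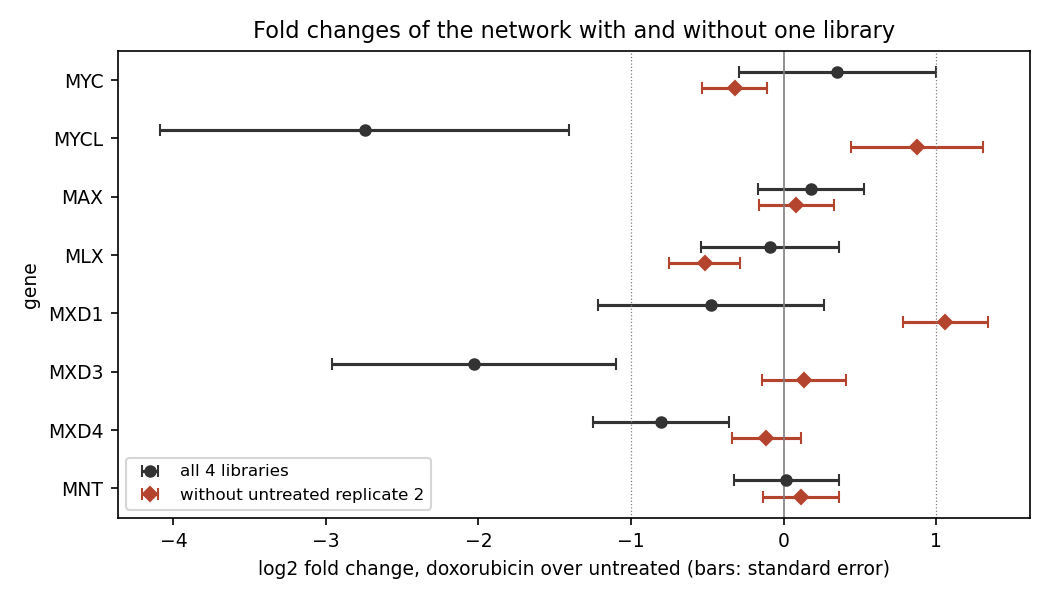
Points are log2 fold changes of doxorubicin over untreated for the 8 members tested, and bars are standard errors of the edgeR quasi-likelihood fit, with all 4 libraries (circles) and without untreated replicate 2 (diamonds). Dotted lines mark the threshold of 1. MYC, MYCL, MXD1 and MXD3 lie on opposite sides of 0 with and without this library, and MXD1 moves from -0.48 to 1.06.

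Leaving out untreated replicate 2 gave 815 genes past the thresholds, 4.44% of the 18356 genes tested in that fit. Of the 8 members, 1 passed, MXD1. An unadjusted p-value under 0.05 was found for 3 members, MYCL, MLX and MXD1, against 19.1% of all genes. Leaving out untreated replicate 1 instead gave 44.4% of all genes past the thresholds, and 5 of the 8 members that were tested over all libraries, with MYC higher (log2 fold change 1.78) and MYCL, MXD1, MXD3 and MXD4 lower in treated cells. MYCN entered that fit only through its 16 counts in untreated replicate 2, so its value there is not read as a result. Read against untreated replicate 1 alone, both doxorubicin libraries were higher in MYCL, MAX, MXD1, MXD3 and MNT and lower in MYC and MLX, where 53.1% and 24.7% of all genes were higher and lower. Among these, the differences of MAX, MXD3 and MNT from untreated replicate 1 had SE values larger than the log2 fold change itself.

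Compared per length, as CPM per kb of exon, the order of the members differed between untreated replicate 2 and the other libraries. In untreated replicate 1, MYC had 63.0 CPM per kb, followed by MXD4 at 19.2 and MLX at 18.7, which were close together. MAX (6.06), MNT (4.22), MXD3 (2.94), MXD1 (1.75) and MYCL (0.283) came next. The doxorubicin libraries kept MYC first, at 55.2 and 56.5 CPM per kb, then MXD4 at 20.6 and 18.7 and MLX at 15.0 and 13.9. In these libraries MXD1 (3.50 and 4.59) and MXD3 (3.66 and 3.48) were not separated, while MNT (5.19 and 4.91) was above MXD3 and not clearly beyond the spread of the MXD1 values. In untreated replicate 2 MXD4 was first at 42.4 CPM per kb and MXD3 second at 23.3, ahead of MYC at 15.4. MLX (8.87), MXD1 (8.35) and MYCL (6.72) all stood above MAX (5.17) there.

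The balance of activators and repressors among the members followed the same division. The CPM of MYC, MYCL and MYCN summed to 387 in untreated replicate 1, 128 in untreated replicate 2, and 339 and 349 in the doxorubicin replicates. The CPM of MXD1, MXD3, MXD4 and MNT summed to 194, 496, 226 and 217 in the same order. MXI1, a further MXD repressor outside the members, was not in this sum and had 20.9, 14.6, 63.0 and 69.1 CPM. MGA, a MAX partner outside the members, was not in it either and had 76.6, 17.3, 69.2 and 94.4 CPM. The ratio of the sums was 2.00 and 0.258 without and 1.5 and 1.61 with doxorubicin. On the scale of CPM per kb this ratio was 2.26 and 0.283 against 1.69 and 1.81. Among the members, the repressor sum exceeded the MYC family sum in untreated replicate 2 and in none of the other 3 libraries. This order need not hold in the doxorubicin libraries once MXI1 and MGA are added. MXD4 gave 68.1% and 58.7% of the repressor counts without and 62.5% and 59.2% with doxorubicin. MXD3 gave 22.3% in untreated replicate 2 and 7.19% to 7.67% elsewhere.

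**Figure D3:**
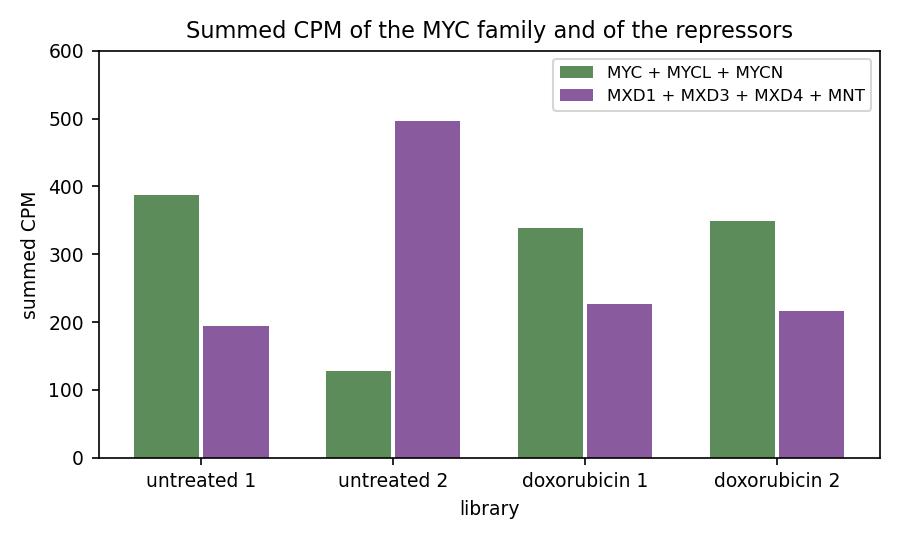
Bars are summed CPM of the MYC family (MYC, MYCL, MYCN) and of the repressors (MXD1, MXD3, MXD4, MNT) in each library, with 1 library per pair of bars and no error. The repressor MXI1 and the MAX partner MGA are not in the sums, so the order of the bars holds for the members alone. The MYC family is the higher bar in untreated replicate 1 (387 against 194) and in both doxorubicin libraries, and the lower bar in untreated replicate 2 (128 against 496).

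The 4 other genes of the network were MXI1, a further MXD repressor, MGA, a MAX partner that also carries a T-box, MLXIP and MLXIPL. None passed the thresholds with all libraries, and their median log2 fold change was 0.75, with 4 of 4 above 0, against a median of 0.01 over all genes. The median was 0.25 with 2 of 4 above 0 without untreated replicate 2, and 1.74 with 4 of 4 above 0 without untreated replicate 1. MXI1 was among the 30.3% of genes tested in which both doxorubicin libraries were above both untreated ones. It had 20.9 and 14.6 CPM without and 63.0 and 69.1 CPM with doxorubicin, so the groups did not overlap. Its log2 fold change was 1.74 with an SE of 0.38 (edgeR, p-value 0.00474 unadjusted and 0.773 adjusted). Without untreated replicate 2 it was 1.51 with an SE of 0.26 and passed the thresholds (edgeR, adjusted p-value 1.45e-06). Both doxorubicin libraries of MXI1 exceeded each untreated library, while those of MXD1 lay between them. MLXIPL had 2.73 and 1.59 CPM against 4.14 and 4.79 CPM, a log2 fold change of 0.87 (SE 0.55). MGA (76.6 and 17.3 against 69.2 and 94.4 CPM) and MLXIP (89.0 and 36.7 against 82.3 and 84.8 CPM) were lowest in untreated replicate 2, and their log2 fold changes were 0.63 and 0.25, and -0.06 and -0.24 without it.

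Genes that MYC is known to activate were examined as a list of 40, with roles in ribosome production, nucleotide and polyamine synthesis and growth, of which 38 were tested. CCND2 had at most 0.381 CPM, and EIF4A1, a translation factor that cells need, was listed at 0 in every library, which is not read as a level of that gene. Of the 38 genes, 0 passed the thresholds in edgeR in either direction and 3 had an unadjusted p-value under 0.05. Their median log2 fold change was -0.41, with 26 of 38 below 0, where 49.2% of all genes were below 0. The size of this shift depended on untreated replicate 1, since without it the median was -0.06 with 19 of 38 below 0. In 17 of the 38 both doxorubicin libraries were below both untreated libraries, a share of 44.7% where all genes tested had 11.5%. NOP16, a nucleolar protein, had 92.4 and 129 CPM without and 59 and 50.8 CPM with doxorubicin, a log2 fold change of -1.16 (SE 0.35, adjusted p-value 0.773, edgeR). MRTO4, a ribosome assembly factor, had 147 and 193 CPM against 109 and 85.6 CPM, a log2 fold change of -0.95 (SE 0.34). ODC1, the first enzyme of polyamine synthesis and the remaining gene under an unadjusted p-value of 0.05, had 591 and 728 CPM against 423 and 375 CPM, and was named after its values were seen. At the other end were EIF4E, the cap-binding translation factor, with a log2 fold change of 0.42 (SE 0.56), and LDHA, lactate dehydrogenase, with 0.27 (SE 0.32). With untreated replicate 2 left out, 36 of the 38 genes were below 0 (94.7%), where 45.7% of all genes were, and their median was -0.45 against 0.05 over all genes. The shift was shared in that fit by the MYC cofactors (91.7% below 0), the MXD corepressors (100%) and the MYC turnover genes (75%). The genes repressed by MYC had 12.5%, the other network genes and the noncoding neighbours 50% each, and the MLX targets 0%. With column totals alone in that fit, 34 of the 38 were below 0 and the median was -0.30 against 0.20. With TMM scaling and without untreated replicate 2, 19 of the 38 had an unadjusted p-value under 0.05, against 19.1% of all genes. The thresholds were passed by 1 of the 38, against 4.44% of all genes, which was TERT, the catalytic subunit of telomerase. TERT, also named after its values were seen, had 1.82 and 0.277 CPM in untreated and 0.612 and 0.689 CPM in treated cells. Its log2 fold change was -1.63 without untreated replicate 2 (SE 0.49, edgeR, adjusted p-value 0.022) and -0.91 with it.

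The list of 8 genes known to be repressed by MYC holds growth inhibitors, several of which p53 also activates. With all libraries 0 passed the thresholds, 4 were above and 4 below 0, and the median log2 fold change was -0.09 (0.07 with column totals alone, which moved the median of all genes from 0.01 to 0.17). NDRG1, a stress-induced gene, had 309 and 746 CPM in untreated cells and 1280 and 1090 CPM after treatment, with a log2 fold change of 1.02 (SE 0.46, edgeR, adjusted p-value 0.773). NDRG2 had 0.64 (SE 0.58). The lowest were CEBPA, a differentiation factor, at -1.12 (SE 0.91), and CDKN1B, which encodes the cell cycle inhibitor p27, at -0.64 (SE 0.46). In the fit that left out untreated replicate 2 the median was 0.82, with 7 of 8 above 0, and 3 of the 8 passed the thresholds in edgeR as higher in treated cells, against 4.44% of all genes in either direction. The 3 genes were NDRG1 (1.79, SE 0.23), GADD45A, a DNA damage gene (1.67, SE 0.25), and CDKN1A, which encodes p21 (1.16, SE 0.23). In that fit 45.7% of all genes were below 0. Without untreated replicate 1 instead, the median of the list was -0.24 with 4 above and 4 below 0. GADD45A had 57.9 and 277 CPM in untreated and 167 and 242 CPM in treated cells, and CDKN1A had 380 and 866 against 1003 and 880 CPM.

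**Figure D4:**
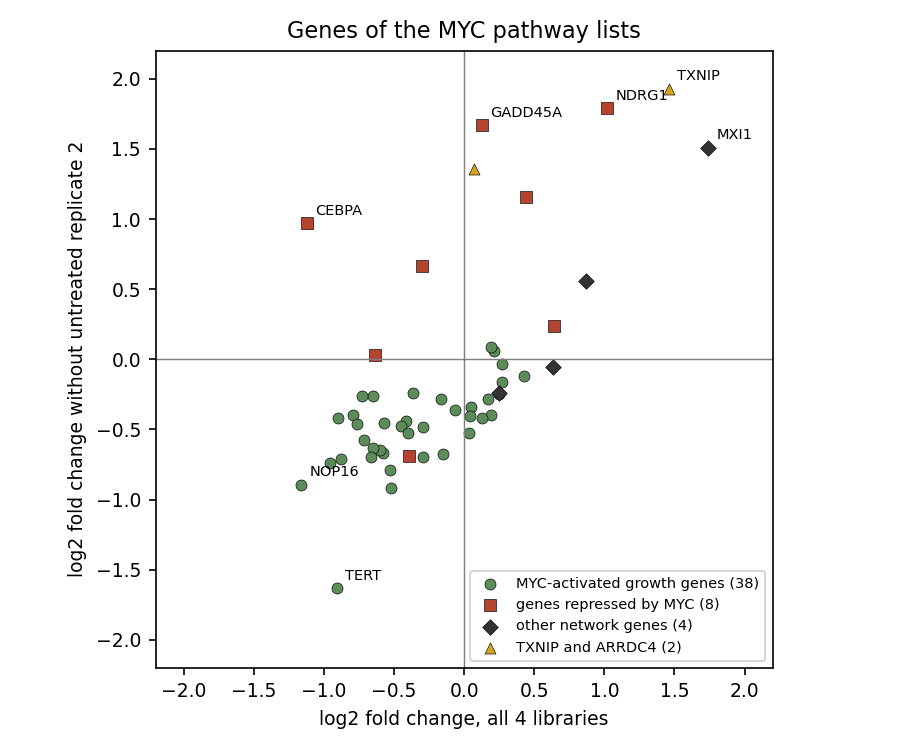
Each point is a gene, with its log2 fold change (doxorubicin over untreated) over all 4 libraries on the horizontal axis and without untreated replicate 2 on the vertical axis, and the number of genes tested per list is in the key. The 38 MYC-activated genes gather below 0 on the vertical axis (36 of 38), while 7 of the 8 genes repressed by MYC lie above it. Of all genes tested without untreated replicate 2, 45.7% were below 0. The fits share 3 libraries, so the axes are not independent.

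Targets of MLX with its glucose-sensing partners were few. TXNIP, which limits glucose uptake, was among the 30.3% of genes tested in which both doxorubicin libraries were above both untreated ones. It had 50.9 and 88.8 CPM in untreated and 184 and 248 CPM in treated cells, so the groups did not overlap. Its log2 fold change was 1.46 with an SE of 0.39 (edgeR, p-value 0.0114 unadjusted and 0.773 adjusted), and 1.93 without untreated replicate 2, which passed the thresholds (edgeR, adjusted p-value 5.94e-12). ARRDC4, a relative of TXNIP, had 2.92 and 11.5 CPM against 7.40 and 9.32 CPM. Its log2 fold change was 0.07 over all libraries and 1.36 without untreated replicate 2 (SE 0.35, edgeR, adjusted p-value 0.00443). PKLR, the liver form of pyruvate kinase, was listed at 0 in all libraries.

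Among 12 cofactors of MYC, 0 passed the thresholds or an unadjusted p-value of 0.05 in edgeR. Their median log2 fold change was -0.06 (0.09 with column totals alone). EP400 had 0.49, and HCFC1 (-0.54) and RUVBL2 (-0.69) were the lowest. Without untreated replicate 2, 11 of the 12 were below 0 with a median of -0.24, where 45.7% of all genes were below 0. With column totals alone in that fit, 9 of the 12 were. Without untreated replicate 1 the median of the cofactors was 0.44. Among 6 corepressors of MXD proteins 0 passed either limit, the median was 0.35, and untreated replicate 2 was the lowest library in 5. SIN3A (0.43) and NCOR1 (0.42) were highest and HDAC1 (0.11) and HDAC2 (-0.33) lowest, while all 6 were below 0 without untreated replicate 2 (median -0.24) and 4 of the 6 when column totals alone also set the scale. Without untreated replicate 1 the median of the corepressors was 1.10. Among 8 genes for the turnover of MYC protein 0 passed either limit, and the median was -0.09 (0.07 with column totals alone, -0.19 without untreated replicate 2 and 0.31 without untreated replicate 1). USP28 (0.79) and GSK3B (0.48) were the highest, and AURKA had -0.41. Of the noncoding neighbours, PVT1, which lies next to MYC, had 29.2 and 8.69 CPM in untreated and 30.4 and 28.5 CPM in treated cells, with its lowest value in untreated replicate 2, like MYC, and a log2 fold change of 0.48 (SE 0.62). CASC11 had 0.117 to 0.45 CPM, and MYCNOS and MYCNUT had at most 0.0346 CPM.

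The genes most like MYC over the 4 libraries, by the distance between centred log2 CPM values among 9403 genes with a mean of at least 10 CPM, were YLPM1 (distance 0.0223), DIS3L2 (0.0463) and HNRNPA1 (0.053). HNRNPA1, a splicing factor, had 902 and 228 CPM in untreated and 829 and 825 CPM in treated cells. A distance under 0.3 was found for 277 genes. The low value of untreated replicate 2 in these genes follows from how they were chosen.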

How the data were processed

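RNA-seq of 4 libraries labelled HepG2 was used, 2 untreated and 2 treated with doxorubicin. The authors used Cutadapt for trimming and HISAT2 for mapping, and the deposited values are whole-number counts per gene, not normalized. The methods name HTSeq, the header names GENCODE release 31, the column headings resemble those of featureCounts, so the counting tool is uncertain, and versions, strand and the treatment of shared reads are not given in the sources used here. Positions, exon lengths and overlaps come from GENCODE release 44 (GRCh38, the same build) by symbol, and promoters from RefSeq.

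CPM used column totals. Genes were filtered by filterByExpr, scaled by TMM and tested in R 4.3.3 with edgeR 4.0.16 (glmQLFit, glmQLFTest, prior count 0.125). The standard error is the log2 fold change divided by the root of F. Calls required a Benjamini-Hochberg p under 0.05, adjusted over all genes, and an absolute log2 fold change of 1 or more. Alternatives were the likelihood ratio and exact tests, DESeq2 1.42.0, RLE factors, column totals, other filters, the replicate block and leaving out each library. The scripts were tested on simulated data. Same-numbered libraries deviated together with a correlation of 0.0395 across genes. Members and lists were chosen with earlier results of these data known. Named were all members, of each list the 2 highest and 2 lowest log2 fold changes (all of a list of 4 or fewer), and the 3 genes most like MYC. Some genes that this rule names are not reported here. USP36 was not analysed here.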

Additional observations from a re-analysis of the deposited data

How the results depend on the processing

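With all 4 libraries, 0 genes passed under RLE factors, column totals alone, no filter, a minimum CPM of 1 in 2 libraries and the earlier form of the fit (chosen after seeing the data), while the likelihood ratio test called 64 genes, the exact test 38 and DESeq2 89, and 0 members passed in any of these. The cause was not tested. With the replicate block 20 genes and 0 members were called, MXD3 had an unadjusted p-value of 0.0484 (edgeR, log2 fold change -1.38), and MLX turned to 0.00595. The numbers of the replicates gave little sign of pairing the libraries. MLX was 0.0659 with column totals alone, and MNT was -0.0362 with DESeq2, -0.0358 with RLE factors and -0.0163 with the CPM filter. Column totals alone moved the median of all genes from 0.01 to 0.17.

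Over the fits without 1 library, 0 to 8697 genes and 0 to 6 members passed, the highest counts being without untreated replicate 1 (the 6 include MYCN, which passed the filter there through untreated replicate 2). The log2 fold changes ran from -0.32 to 1.78 for MYC, -3.63 to 0.87 for MYCL, -0.52 to 0.62 for MLX, -1.13 to 1.06 for MXD1, -2.79 to 0.14 for MXD3, -1.20 to -0.11 for MXD4 and -0.0245 to 0.15 for MNT, while MAX stayed above 0, at 0.08 to 0.37. Leaving out untreated replicate 2 together with a change of RLE factors, column totals alone or DESeq2 was chosen after seeing the data. Then 746, 1075 and 352 genes passed, and 1 member, MXD1, in each, at 1.02, 1.21 and 1.02. In the same order MYC had -0.36, -0.17 and -0.36, MYCL 0.83, 1.02 and 0.84, and MXD3 0.0978, 0.28 and 0.0973, and MXD4 had 0.0327 with column totals alone. In a fit that leaves 1 library in a group, that library is assumed to vary like the other group. Depth limits MYCN most among the members, with at most 16 counts. MYCL was also low outside untreated replicate 2, with 51 counts in untreated replicate 1 and 80 and 95 in the doxorubicin replicates.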
